A study of Mus musculus with 22 samples.

Results

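Cytochrome P450 families 1 to 3 were measured as 43 of the 18194 genes with a symbol of their own on an oligonucleotide array. A gene belonged to them if its symbol was Cyp1, Cyp2 or Cyp3 followed directly by a letter, and it was read from its brightest probe set, by the mean of all arrays. Of the 43, 3 were in family 1, 35 in family 2 and 5 in family 3, across 14 subfamilies. Cyp2a4, Cyp2a5 and Cyp3a41a were not among them, because 2 probe sets carrying such symbols also carried that of a close relative. Each array held liver RNA of 1 mouse. The younger mice, aged 5 weeks, were 4 wild types (WT), 4 Trim24-/- and 4 Trim24-/- Rara+/- animals, and the older mice, aged 14 weeks, were 5 WT and 5 Trim24-/- animals. Double-heterozygous parents gave all genotypes, on a mixed C57BL/6 (60%) and 129/Sv (40%) background. Trim24, a transcriptional co-regulator, had been disrupted with no tissue-specific promoter or Cre named in the labels, and Trim24-/- Rara+/- mice also lacked 1 allele of Rara, the retinoic acid receptor alpha gene. There was no group with Rara+/- alone, so the effect of that allele was seen only where Trim24 was absent. Mice are named by the ends of their labels, a number followed by WT, KO, R or M, with the word liver kept for the older mice.

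Enzymes of these families sit mostly in the endoplasmic reticulum of hepatocytes, where they insert an oxygen atom into drugs, toxins, steroids and fatty acids. Many of their genes are switched on by the xenobiotic receptors AHR, CAR and PXR, which classically act on Cyp1a, Cyp2b and Cyp3a genes. Others follow the sex-specific pattern of growth hormone: in the mouse, Cyp2d9 is a classic male-predominant gene, whereas Cyp2b9, Cyp2b13, Cyp3a16 and Cyp3a44 are female-predominant. The Cyp2b, Cyp2c, Cyp2d, Cyp2j and Cyp3a genes lie in arrays of close relatives that arose by gene duplication.

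Promoters of 3 pairs of such relatives are shown as a description, since array probes read transcripts and no link between promoter and signal was tested. RefSeq (GRCm38.p6) promoter sequences were found for 35 of the 43 genes. The 250 bases before the start of Cyp2b9 (chr7:26173159-26173408, plus strand) and of its neighbour Cyp2b13 (chr7:26061245-26061494, plus strand) are shown because both genes were near 0 in the same 2 animals. They were 99.2% identical and differed by 2 substitutions, T48C and C104T, counted from 1 at the 5′ end and written as the Cyp2b9 base, the position and the Cyp2b13 base. Capitals mark them.
Cyp2b9: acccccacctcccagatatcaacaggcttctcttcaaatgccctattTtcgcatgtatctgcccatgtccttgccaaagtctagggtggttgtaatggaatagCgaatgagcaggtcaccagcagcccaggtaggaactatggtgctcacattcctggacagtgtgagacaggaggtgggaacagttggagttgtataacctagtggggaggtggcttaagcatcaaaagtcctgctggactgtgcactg
Cyp2b13: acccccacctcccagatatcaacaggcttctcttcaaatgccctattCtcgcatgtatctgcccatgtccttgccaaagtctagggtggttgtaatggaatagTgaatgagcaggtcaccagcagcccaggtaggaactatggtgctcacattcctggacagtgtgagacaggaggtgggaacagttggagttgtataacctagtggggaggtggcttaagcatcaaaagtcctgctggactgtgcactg
Cyp2b10, the next gene of that array, was 68.85% identical to each of them in an alignment with gaps. The windows of Cyp2c37 (chr19:39992174-39992423, plus strand) and Cyp2c50 (chr19:40089429-40089678, plus strand) are shown because both genes were low in the same 4 animals. They were 84.3% identical, and capitals mark bases that differ or have no partner in the alignment.
Cyp2c37: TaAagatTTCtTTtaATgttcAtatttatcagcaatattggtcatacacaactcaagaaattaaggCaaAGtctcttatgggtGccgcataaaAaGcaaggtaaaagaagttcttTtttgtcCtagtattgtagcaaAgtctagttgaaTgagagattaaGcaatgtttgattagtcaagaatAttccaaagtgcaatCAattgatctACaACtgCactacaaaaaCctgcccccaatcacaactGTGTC
Cyp2c50: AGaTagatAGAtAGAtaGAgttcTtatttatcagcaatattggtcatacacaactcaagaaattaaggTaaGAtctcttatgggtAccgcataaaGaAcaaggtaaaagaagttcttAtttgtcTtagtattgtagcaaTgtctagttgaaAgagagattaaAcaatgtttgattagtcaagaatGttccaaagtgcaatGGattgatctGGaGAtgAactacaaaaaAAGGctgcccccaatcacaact
Cyp2d9 (chr15:82452127-82452376, plus strand) and its neighbour Cyp2d10 (chr15:82407195-82407444, minus strand) are shown, with capitals used in the same way, because only Cyp2d9 was higher in Trim24-/- livers at 5 weeks. They were 82.3% identical.
Cyp2d9: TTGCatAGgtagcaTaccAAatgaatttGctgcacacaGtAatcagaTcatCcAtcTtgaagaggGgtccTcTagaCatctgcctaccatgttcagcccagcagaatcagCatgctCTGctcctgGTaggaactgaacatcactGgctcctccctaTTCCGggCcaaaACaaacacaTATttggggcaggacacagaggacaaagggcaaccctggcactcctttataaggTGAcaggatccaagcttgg
Cyp2d10: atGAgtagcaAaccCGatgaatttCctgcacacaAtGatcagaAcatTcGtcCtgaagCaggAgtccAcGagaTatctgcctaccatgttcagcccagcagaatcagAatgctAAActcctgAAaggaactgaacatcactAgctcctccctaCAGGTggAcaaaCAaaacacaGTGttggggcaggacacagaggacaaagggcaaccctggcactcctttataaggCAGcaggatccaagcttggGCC
Among all 27025 promoters of that table, taken over the same 250 bases and read on both strands, 13.8% held AGGTCA, a hexamer bound by many nuclear receptors. It occurred in 11 of the 35 promoters found here, or 31.4%, those of Cyp2b9, Cyp2b13, Cyp3a11 and Cyp3a44 among them. Near-identical copies such as Cyp2b9 and Cyp2b13 were counted separately, so the 35 are not independent promoters. TTCNNNGAA, the core recognised by STAT5, was held by 7.18% of all promoters and by 1 of the 35, that of Cyp2j11, named after the search. GCGTG, the core recognised by AHR, was held by 28.2% of all promoters and by 6 of the 35, including those of Cyp1a1 and Cyp1b1. None of the 3 sequences was found in the windows of Cyp2d9, Cyp2d10, Cyp2c37 or Cyp2c50.

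Signals were linear and had been scaled by the authors, so that the mean after trimming the extremes was 100.001 on every array. They were tested with limma as log2(signal + 16), which understates changes at low signal. Array medians ranged from 12.6 to 16.1 in the younger and from 19.7 to 25.9 in the older mice, and no arrays were identical. Within a group, arrays correlated at 0.948 to 0.992 across 8334 genes. Trim24 itself read 191 to 459 in WT and 305 to 488 in Trim24-/- livers at 5 weeks, and since no source states which part of the gene its probes cover, it does not check the labels. Hepatocyte markers were bright in every group, with Alb, the albumin gene, between 7059 and 12761. The labels do not say which animals were littermates or were handled together, and p-values measure only the spread between these animals. In whole liver, fewer cells of a type and less RNA per cell cannot be told apart.

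At 5 weeks, 3 of the 43 genes rose in Trim24-/- livers and none fell, with p-values adjusted by Benjamini-Hochberg across the 18194 genes and a threshold of 0.05. Of all genes, 0.599% were called in either direction, 0.473% higher and 0.126% lower. The 3 were Cyp2u1, Cyp2d9 and Cyp2d12. A further 40 genes did not pass, and the median difference of the 43 was 0.02 on the log2 scale, against -0.01 over all genes. At an unadjusted p under 0.05 there were 9 of the 43, 5 higher and 4 lower, where 10.8% of all genes reached that level (6.11% higher and 4.73% lower). Of the 34 genes with a mean signal of at least 32, 17 had a 95% interval of the difference within 1.5-fold either way. For the dimmer 9 the interval was narrowed by the 16 added before the log, and larger changes of signal are not limited by it.

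**Figure D1:**
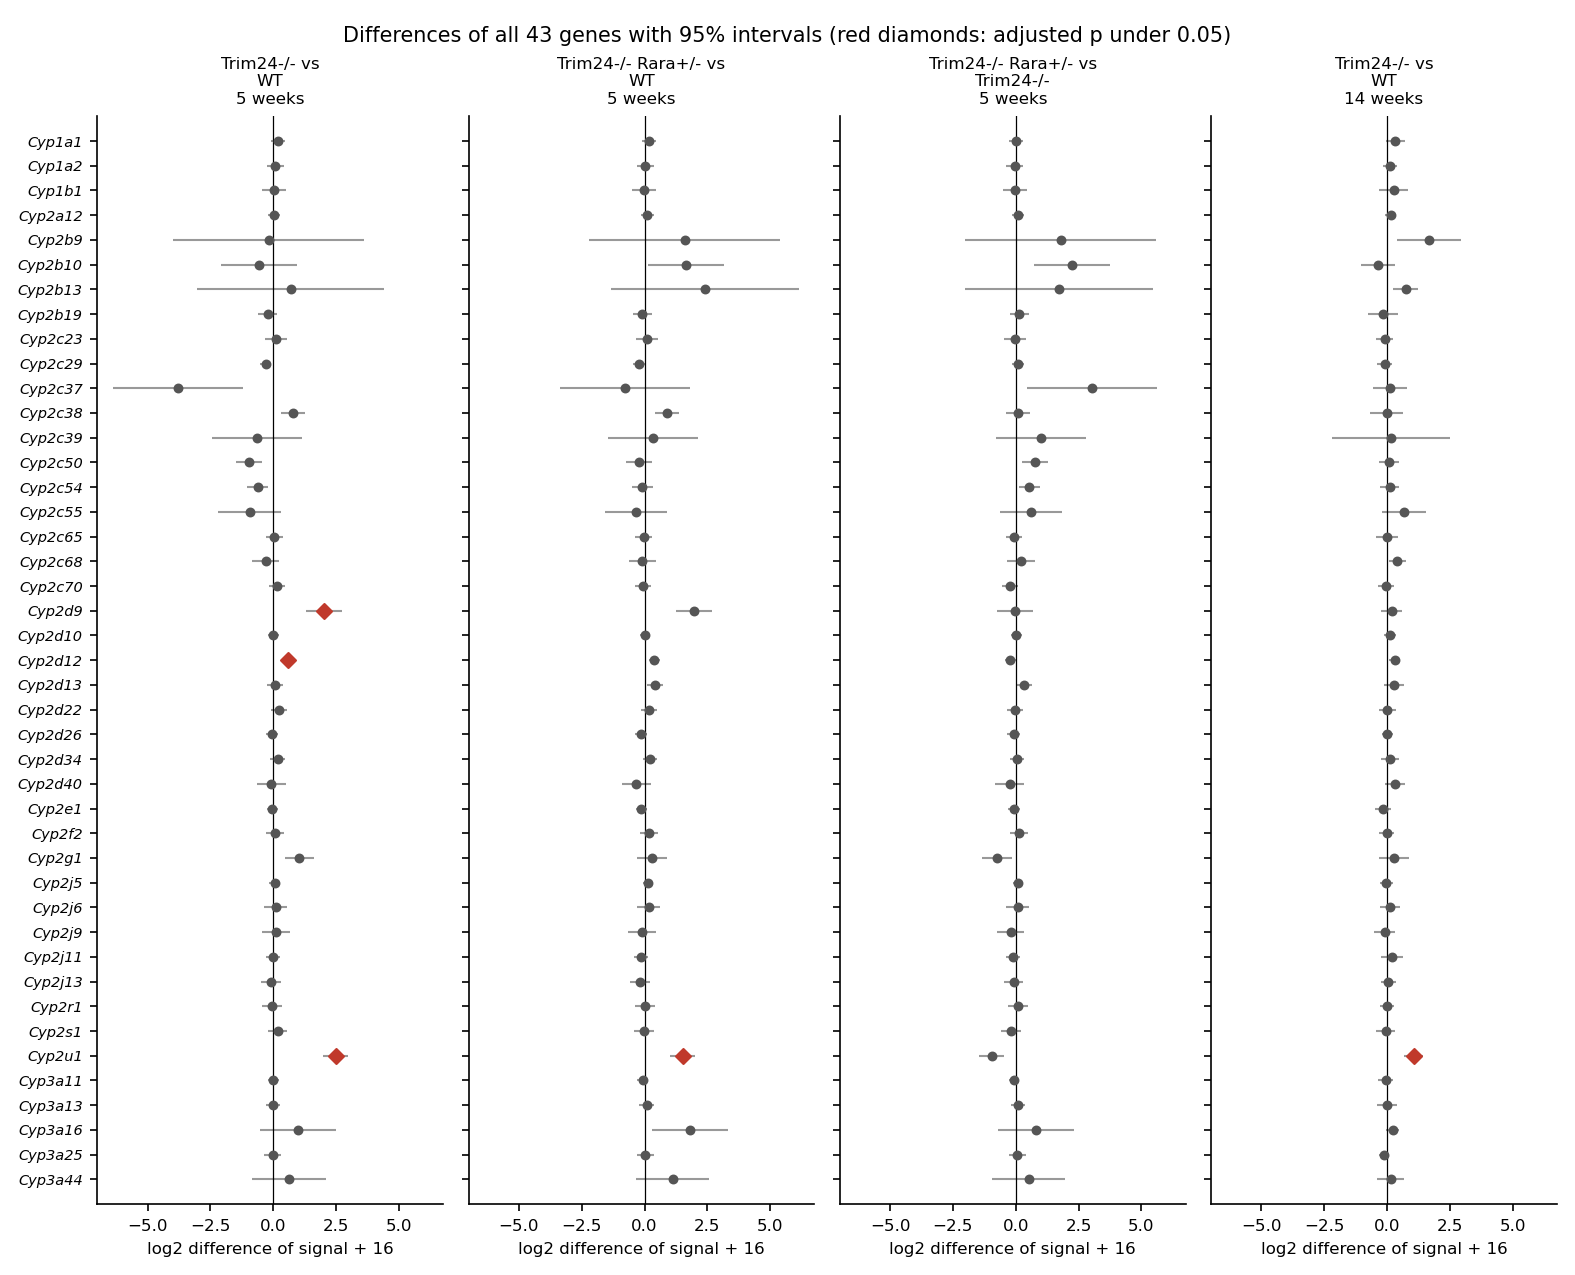
Differences of the 43 genes on the log2(signal + 16) scale (horizontal axis) with 95% intervals from limma, 1 panel per comparison. Red diamonds are genes with an adjusted p under 0.05: 3 for Trim24-/- against WT at 5 weeks, 1 for Trim24-/- Rara+/- against WT, none for Trim24-/- Rara+/- against Trim24-/-, and 1 at 14 weeks. The widest intervals at 5 weeks belong to Cyp2b9, Cyp2b13 and Cyp2c37.

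Cyp2u1, which encodes an enzyme that hydroxylates long-chain fatty acids and is known mainly from brain and thymus, differed most clearly between genotypes. In 5-week WT livers its signal was 25.3, 23.8, 22.8 and 22.04 in animals 2WT, 44WT, 45WT and 90WT. In Trim24-/- livers it was 242, 261, 257 and 104 in animals 1KO, 6KO, 8KO and 37KO. In Trim24-/- Rara+/- livers it was 93.3, 80.9, 104 and 111 in animals 54R, 66R, 73R and 82R. Every mutant liver lay above every WT liver, and Trim24-/- animal 37KO lay inside the range of the Trim24-/- Rara+/- group, well below the other Trim24-/- animals.

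The rise of Cyp2u1 from 23.5 ± 1.38 (SD, n = 4) to 216 ± 75.1 in Trim24-/- livers was 2.48 ± 0.22 (SE) on the log2 scale, or 5.57-fold (limma, adjusted p = 3.20e-04), and the call held under all 28 alternatives. The rise to 97.3 ± 13.1 in Trim24-/- Rara+/- livers was 1.51 ± 0.22, or 2.86-fold (adjusted p = 0.0336). Between the mutants, Cyp2u1 differed by -0.96 ± 0.22 (95% interval -1.45 to -0.48, adjusted p = 0.102), which did not pass. Without animal 37KO that difference was -1.25 with an adjusted p of 0.00142. It also passed with all animals kept, with array weights (-1.07, adjusted p = 0.0190) and with all 22 arrays in the fit (-0.96, adjusted p = 0.0422). The other 25 of 28 alternatives did not pass with limma, and the adjusted p reached 0.679. A second, dimmer Cyp2u1 probe set averaged 12.5 in WT livers, 30.5 with Trim24-/- and 17.5 with Trim24-/- Rara+/-. Tested among 34958 probe sets, it rose by 0.71 in Trim24-/- livers (limma, adjusted p = 0.0393) and differed by 0.22 from WT in Trim24-/- Rara+/- livers (adjusted p = 0.790).

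Markers of macrophages were read beside Cyp2u1. Of 12 on a fixed list, 1 rose in Trim24-/- livers, Mpeg1, a gene of the perforin family, from 293 ± 63.8 to 991 ± 263 (adjusted p = 0.0275), and read 392.1 ± 238 in Trim24-/- Rara+/- livers. The summed signal of the 12 was 4318 to 8688 in WT and 6068 to 11753 in Trim24-/- livers, with 5825 to 9492 in Trim24-/- Rara+/- livers, ranges that overlap. Of the 12, 11 had higher means in Trim24-/- than in WT livers, 4 of them at an unadjusted p under 0.05 and 3 without overlap, with a median difference of 0.35. At 14 weeks none passed, but all 12 had higher means in Trim24-/- livers, 8 of them at an unadjusted p under 0.05, with a median of 0.43 and sums of 3866 to 5068 in WT and 4527 to 8459 in Trim24-/- livers. Against WT livers, 11 of 12 were higher in Trim24-/- Rara+/- livers, 2 at that level, with a median of 0.16. Their part in the results for Cyp2u1 at either age was not tested.

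Cyp2d9, a steroid 16-alpha-hydroxylase, was the brighter of the other called genes. Its signal in 5-week WT livers was 3432 in animal 2WT, 772 in animal 44WT, 2208 in animal 45WT and 2096 in animal 90WT. Trim24-/- livers read 8939, 6159, 7793 and 7806, and Trim24-/- Rara+/- livers 7848, 6932, 7129 and 7904. Both mutant groups lay above all WT livers and overlapped each other, while the WT livers were spread widely, with animal 44WT lowest. The rise in Trim24-/- livers was 2.01 ± 0.33 on the log2 scale, or 4.03-fold (limma, adjusted p = 0.0200). It passed under 20 of 27 alternatives, and without animal 45WT, Trim24-/- animal 1KO or Trim24-/- animal 8KO its adjusted p was 0.0694, 0.0707 and 0.0713. Trim24-/- Rara+/- livers differed from WT by 1.98 ± 0.33, with an adjusted p of 0.0669 that did not pass, and by -0.03 ± 0.33 from Trim24-/- livers (95% interval -0.75 to 0.68). The difference from WT passed under 6 of 27 alternatives, with adjusted p from 0.00177 to 0.807 over all of them (limma).

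Cyp2d12 was dim throughout. Its signal was 8.16, 7.91, 4.03 and 5.87 in 5-week WT livers, 19.5, 16.2, 21.4 and 15.1 in Trim24-/- livers, and 10.7, 14.3, 12.6 and 15.5 in Trim24-/- Rara+/- livers. All WT values lay below all mutant values, although most values were below or close to the 16 added before the log. The rise in Trim24-/- livers was 0.60 ± 0.10 (adjusted p = 0.0253), a call lost without animal 44WT or 45WT or Trim24-/- animals 1KO or 8KO, with adjusted p between 0.0580 and 0.0884. On chromosome 15, 1 coding gene stands between Cyp2d9 and Cyp2d12.

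The other 6 Cyp2d genes did not pass. Cyp2d13 differed from WT by 0.08 ± 0.15 in Trim24-/- and by 0.40 ± 0.15 in Trim24-/- Rara+/- livers (adjusted p = 0.897 and 0.548). Its second probe set, with means of 260 in WT and 197 in Trim24-/- livers, gave -0.37 ± 0.17 and 0.14 ± 0.17 (adjusted p = 0.496 and 0.924 among 34958 probe sets), so that for Trim24-/- livers the probe sets disagreed in sign. Cyp2d22 differed by 0.23 ± 0.15 and 0.19 ± 0.15, and Cyp2d26 by -0.06 ± 0.12 and -0.14 ± 0.12. Cyp2d10, named after its values were seen as the nearest neighbour of Cyp2d9, read 6676 ± 354 in WT and 6694 ± 711 in Trim24-/- livers, with an interval of -0.21 to 0.21. Within the cluster, values of 5-week Trim24-/- livers thus lay apart from WT for Cyp2d9 and Cyp2d12 only, of 8 genes. In that comparison the groups did not overlap for 3 of the 43 genes in the higher direction and 3 in the lower, against 3% and 2.52% of all genes.

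**Figure D2:**
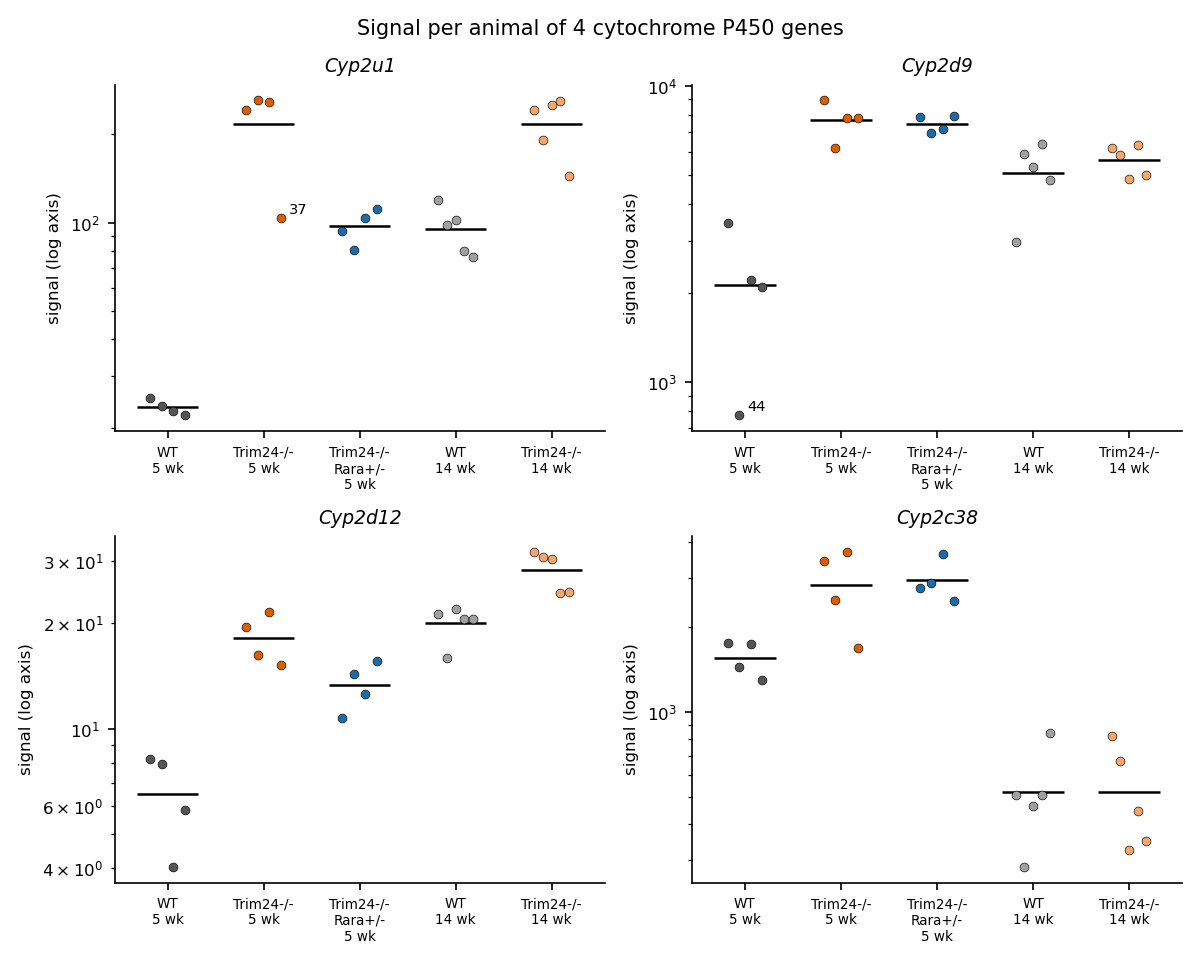
Signal per animal (vertical log axes, each with its own range) of Cyp2u1, Cyp2d9, Cyp2d12 and Cyp2c38 in the 5 groups, with a bar at each group mean. Cyp2u1 in Trim24-/- animal 37KO (104) sits with the Trim24-/- Rara+/- animals (80.9 to 111), and Cyp2d9 in animal 44WT (772) is the lowest of all.

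The Cyp2c genes of chromosome 19 held the 3 that were lower without overlap, Cyp2c50, Cyp2c54 and Cyp2c29, and also the largest difference that did not pass, Cyp2c37. Their enzymes turn arachidonic and linoleic acid and many drugs into oxygenated products. Signals of Cyp2c37 in 5-week WT livers were 5525, 6237, 4981 and 5044. They were 141, 137 and 125 in Trim24-/- animals 1KO, 6KO and 8KO but 6923 in animal 37KO. They were 6561, 6098 and 6903 in Trim24-/- Rara+/- animals 54R, 66R and 82R but 356 in animal 73R. Low and high values were thus far apart with none between, and both mutant groups held both.

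The difference of Trim24-/- from WT for Cyp2c37 was -3.80 ± 1.19 on the log2 scale (adjusted p = 0.228), and without animal 37KO it was -5.18 with an adjusted p of 0.0158. Cyp2c50, 1 gene further on beyond Cyp2c54, read 6903, 7806, 6846 and 6275 in WT livers and 2873, 3134, 2963 and 5638 in Trim24-/- livers. Animal 37KO again stood closest to WT. The difference was -0.98 ± 0.24 (adjusted p = 0.116). In Trim24-/- Rara+/- animals 54R, 66R, 73R and 82R Cyp2c50 read 6914, 6712, 3735 and 7533, with animal 73R alone outside the WT range on the low side.

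Cyp2c54, which lies between them, read 3615, 2774, 4286 and 3363 in WT and 2081, 2606, 2421 and 1926 in Trim24-/- livers, including animal 37KO. In Trim24-/- Rara+/- livers it was 3905, 3466, 2136 and 3868, with animal 73R again low. The difference of Trim24-/- from WT was -0.63 ± 0.20 (adjusted p = 0.224). Cyp2c68, the next measured member on the other side of Cyp2c37, was 4018, 4655 and 4556 in Trim24-/- animals 1KO, 6KO and 8KO, 4069 in Trim24-/- Rara+/- animal 73R, and 8489 in animal 37KO. The WT livers spanned 4629 to 7654, so that for this gene 3 of those 4 low values lay just under the WT range and 1 just inside it. Cyp2c55, dimmer, read 18.5, 37.9 and 25.6 in animals 1KO, 6KO and 8KO and 22.4 in animal 73R, but animal 90WT read 27.1.

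Cyp2c38 ran the other way. It was 1756, 1443, 1743 and 1303 in WT livers, 3428, 2491, 3704 and 1689.7 in Trim24-/- livers, and 2745, 2861, 3643 and 2471 in Trim24-/- Rara+/- livers. All Trim24-/- Rara+/- livers and 3 of 4 Trim24-/- livers lay above WT, with animal 37KO inside the WT range. The differences from WT were 0.80 ± 0.22 (adjusted p = 0.164) and 0.90 ± 0.22 (adjusted p = 0.255), and the first was 1.02 with an adjusted p of 0.0245 without animal 37KO. Cyp2c39, a retinoic acid hydroxylase in the mouse and the neighbour of Cyp2c38, read 2426 to 3062 in WT livers, 4369, 3214 and 4436 in Trim24-/- animals 1KO, 6KO and 8KO, and 135 in animal 37KO. In Trim24-/- Rara+/- animals 54R, 66R, 73R and 82R it was 3259.6, 3186, 4671 and 3031. Animal 37, high for Cyp2c37, was therefore low for Cyp2c39, and animal 73R, low for Cyp2c37, was the highest of its group for Cyp2c39.

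The remaining Cyp2c genes had smaller differences. Cyp2c29, which lies beside Cyp2c39, read 9398 to 10139.6 in WT livers, 6637 to 9076 in Trim24-/- livers and 7780.2 to 8907 in Trim24-/- Rara+/- livers, differences of -0.31 ± 0.11 (adjusted p = 0.288) and -0.22 ± 0.11 (adjusted p = 0.686). Both mutant groups lay below WT without overlap. Cyp2c70, a bile acid hydroxylase that makes muricholic acids, differed by 0.14 ± 0.15 and -0.08 ± 0.15, and Cyp2c23 by 0.11 ± 0.20 and 0.09 ± 0.20. None of the 11 Cyp2c genes passed the test in any comparison. Leaving out Trim24-/- animal 37KO brought Cyp2c37, Cyp2c38 and Cyp2c50 under the threshold at 5 weeks (adjusted p = 0.0158, 0.0245 and 0.0225), together with the 3 called genes. Cyp2c37 and Cyp2c38 did not pass under 27 of 28 alternatives, nor Cyp2c50 under 26 of 28.

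**Figure D3:**
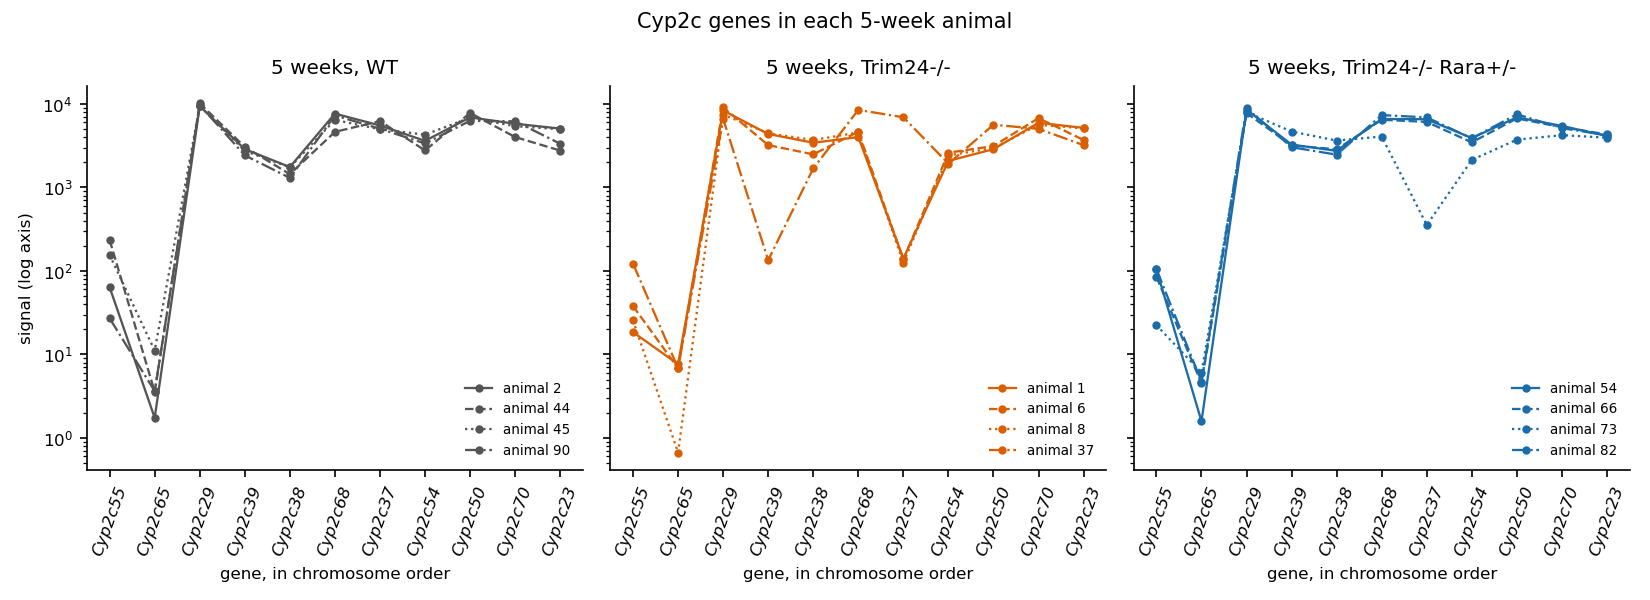
Signal (vertical log axis) of the 11 Cyp2c genes in chromosome order in each 5-week animal, 1 panel per group. Lines join the values of 1 animal and do not compare genes, whose probes differ. Cyp2c37 drops to 125 to 141 in 3 of 4 Trim24-/- animals and to 356 in Trim24-/- Rara+/- animal 73R, and Cyp2c39 drops to 135 in Trim24-/- animal 37KO.

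The Cyp2b genes showed the widest spread within groups. Cyp2b9 read 2409, 4044 and 2875 in animals 2WT, 44WT and 45WT and 7.28 in animal 90WT. It read 2778, 2742 and 2826 in Trim24-/- animals 1KO, 8KO and 37KO and 1.83 in animal 6KO. All 4 Trim24-/- Rara+/- livers lay between 2484 and 3194. Cyp2b13 was at 2.22 in animal 90WT and 8.63 in Trim24-/- animal 6KO, and between 1197 and 4115 in the other 10 animals of that age. Both genes were thus near 0 in the same animals, 1 WT and 1 Trim24-/-, and bright in the other 10 of that age. The differences of Trim24-/- from WT, -0.19 ± 1.75 for Cyp2b9 and 0.68 ± 1.72 for Cyp2b13, have intervals of -3.98 to 3.60 and -3.05 to 4.41, which hold large changes either way. Without those 2 animals the differences were -0.13 ± 0.18 and 0.77 ± 0.27 (adjusted p = 0.820 and 0.277). No source states how far these probe sets tell the near-identical copies apart.

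Cyp2b10, the classic target of CAR and the next gene of that array, did not share this pattern. It read 40.6, 505, 822 and 100.4 in animals 2WT, 44WT, 45WT and 90WT, and 118, 77.3, 109 and 347 in Trim24-/- animals 1KO, 6KO, 8KO and 37KO. It read 639, 706, 859 and 666 in Trim24-/- Rara+/- livers. The WT livers were spread from low to high, whereas the Trim24-/- Rara+/- livers were alike and all above the Trim24-/- livers. That difference, 2.24 ± 0.70 or 4.73-fold, had an adjusted p of 0.215 and did not pass; it was the only one of the 43 genes for which those groups did not overlap in the higher direction, and there was none in the lower (3.33% and 5.13% of all genes). The other 2 Cyp2b10 probe sets gave 2.39 and 2.44. Trim24-/- Rara+/- livers differed from WT by 1.65 ± 0.70 (adjusted p = 0.637).

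The Cyp3a genes held the main drug-metabolising enzyme of mouse liver, Cyp3a11, a target of PXR, which was alike in all 5-week livers. WT livers read 11247, 10823, 10184 and 11982, Trim24-/- livers 11788, 10272, 10451 and 11802, and Trim24-/- Rara+/- livers 11296, 9579, 10074 and 11192. The groups overlapped, and the intervals of both differences from WT lay between -0.28 and 0.22. Cyp3a13 and Cyp3a25 differed from WT by at most 0.09 in either mutant group. Cyp3a16 and Cyp3a44 varied between animals: Cyp3a16 read 0.773, 19.7, 0.401 and 85.7 in WT and 0.282, 88.5, 32.6 and 176 in Trim24-/- livers. It read 79.6, 65.2, 112 and 136 in Trim24-/- Rara+/- livers, where no animal was near 0, and the difference from WT was 1.81 ± 0.70 (adjusted p = 0.579). Cyp3a44 read 410.9 in animal 90WT and 418 in Trim24-/- animal 6KO, the animals without Cyp2b9 signal, against 36.5 to 123 in the other WT livers. In the other Trim24-/- livers it was 34.5, 159.6 and 391, so that for this gene animal 6KO was not apart.

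**Figure D4:**
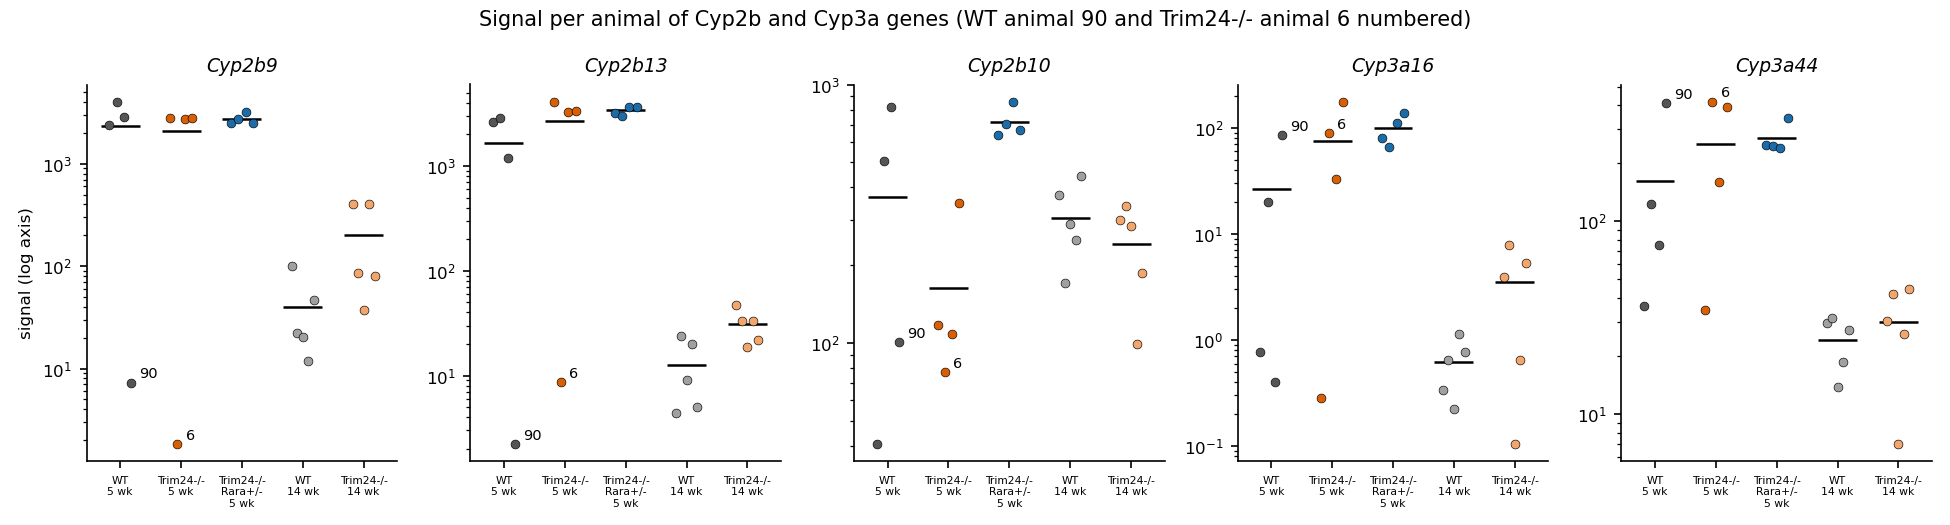
Signal per animal (vertical log axes, each with its own range) of Cyp2b9, Cyp2b13, Cyp2b10, Cyp3a16 and Cyp3a44, with a bar at each group mean and with animal 90WT and Trim24-/- animal 6KO numbered. Both animals lie between 1.83 and 8.63 for Cyp2b9 and Cyp2b13, where other 5-week animals lie between 1197 and 4115, and they are at 410.9 and 418 for Cyp3a44.

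None of the genes of the other subfamilies passed the test. Cyp1a1 and Cyp1a2, the main targets of AHR, differed between 5-week Trim24-/- and WT livers by 0.18 ± 0.13 and 0.09 ± 0.16. Cyp1a2 read 3636 to 5156 in WT livers, 4011 to 5986 with Trim24-/- and 4359.7 to 5294 with Trim24-/- Rara+/-, and Cyp1b1 was dim in all groups. Cyp2e1, the ethanol-inducible enzyme of pericentral hepatocytes, read 12513 ± 874 in WT livers, 12188 ± 1132 with Trim24-/- and 11509 ± 1031 with Trim24-/- Rara+/-, with intervals of the differences from WT between -0.35 and 0.19. Cyp2f2, a marker of periportal hepatocytes, differed by 0.07 ± 0.16 and 0.18 ± 0.16. Cyp2j5, an arachidonic acid epoxygenase of liver and kidney, differed by 0.05 ± 0.10 and 0.14 ± 0.10, with the opposite sign on its second probe set (-0.20 and -0.34), and Cyp2r1, a vitamin D 25-hydroxylase, by -0.06 ± 0.18 and 0.02 ± 0.18.

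Cyp2g1, a gene known from olfactory mucosa, stood apart from these. It read 157, 94.6, 114 and 105 in 5-week WT livers, 446, 145, 224 and 284 in Trim24-/- livers, and 138, 169, 104 and 178 in Trim24-/- Rara+/- livers. Only Trim24-/- animal 6KO lay inside the WT range. The difference of Trim24-/- from WT was 1.04 ± 0.27, or 2.05-fold (adjusted p = 0.142), and without animal 6KO it was 1.29 with an adjusted p of 0.0353. It did not pass under the other 27 of 28 alternatives.

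In Trim24-/- Rara+/- livers 1 of the 43 genes rose against WT and none fell, where 0.0495% of all genes were called higher, 0.0055% lower and 0.055% in either direction. It was Cyp2u1. Its call was lost without any 1 of 10 of the 12 arrays, animals 2WT, 44WT, 45WT and 90WT, Trim24-/- animals 1KO and 8KO and all 4 Trim24-/- Rara+/- animals, with adjusted p between 0.050003 and 0.121, while the difference itself stayed between 1.46 and 1.59. At an unadjusted p under 0.05 there were 7 of the 43, all higher, against 7.44% of all genes (3.11% higher and 4.33% lower). Groups did not overlap for 5 genes in the higher direction, Cyp2u1, Cyp2d9, Cyp2d12, Cyp2c38 and Cyp2b13, and for Cyp2c29 in the lower, against 1.98% and 2.63% of all genes. The comparisons share arrays, WT or Trim24-/-, with one another, so their values were given side by side and not correlated.

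Between Trim24-/- Rara+/- and Trim24-/- livers none of the 43 genes passed with limma, where 0.143% of all genes did. At an unadjusted p under 0.05 there were 7, of which 5 were higher (Cyp2b10, Cyp2c37, Cyp2c50, Cyp2c54 and Cyp2d13) and 2 lower (Cyp2u1 and Cyp2g1), against 11.5% of all genes (4.34% higher and 7.15% lower). The median difference was 0.05, against -0.01 over all genes. For comparison, 6 of 14 interferon-response genes on a fixed list fell in this contrast, and their median was -1.69. Intervals lay within 1.5-fold for 17 of the 34 genes with a mean signal of at least 32.

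At 14 weeks 1 of the 43 genes rose in Trim24-/- livers and none fell, where 0.181% of all genes rose, 0.0605% fell and 0.242% were called in either direction. It was again Cyp2u1. animals liver_616WT, liver_611WT, liver_613WT, liver_464WT and liver_393WT read 119.8, 98.4, 102, 80.0 and 76.2, and Trim24-/- animals liver_648M, liver_466M, liver_463M, liver_411M and liver_395M read 241, 191, 250.3, 258 and 144. All mutant livers lay above all WT livers, and the WT values were above those of 5-week WT livers. The rise was 1.05 ± 0.17 on the log2 scale, or 2.07-fold (limma, adjusted p = 0.0249). The second probe set rose by 0.98, from 28.9 to 72.4 (adjusted p = 0.00542 among 34958 probe sets). The call for the first was lost without any 1 of 8 animals, liver_611WT, liver_613WT, liver_464WT, liver_393WT, liver_648M, liver_466M, liver_463M or liver_411M, with adjusted p between 0.0621 and 0.0839 and differences between 0.99 and 1.09.

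Cyp2d9 did not differ between genotypes beyond the spread at 14 weeks, at 2973, 5889, 5321, 6386 and 4829 in WT and 6162, 5842, 4857, 6314 and 5000.2 in Trim24-/- livers. The difference was 0.19 ± 0.19 with an interval of -0.23 to 0.60. Cyp2d12 read 15.9 to 21.9 in WT and 24.3 to 31.9 in Trim24-/- livers, without overlap (0.30 ± 0.10, adjusted p = 0.388). Of the 43 genes, 2 did not overlap in the higher direction and none in the lower, against 1.07% and 0.715% of all genes. Cyp2b9 read 99.6, 22.3, 20.1, 11.8 and 46.9 in WT and 407, 84.9, 37.004, 402 and 81.0 in Trim24-/- livers (1.67 ± 0.59, adjusted p = 0.433), and Cyp2b13 4.39 to 24.1 and 18.7 to 47.4 (0.74 ± 0.22, adjusted p = 0.329). Cyp2c68 differed by 0.41 ± 0.16 (adjusted p = 0.480), and the others at an unadjusted p under 0.05 were Cyp2u1, Cyp2d12, Cyp2b9 and Cyp2b13, which made 5 of the 43, all higher, against 8.23% of all genes (4.66% higher and 3.58% lower).

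Cyp2c37 and Cyp2c50 did not show 2 separate levels at 14 weeks. Cyp2c37 spanned 1330.3 to 2979.6 in WT and 1233 to 3730.2 in Trim24-/- livers, and Cyp2c50 3146 to 4724 and 2802 to 5659. Cyp2c39 did show them, at 20.5 and 26.3 in animals liver_616WT and liver_611WT against 361 to 777 in the other WT livers, and at 38.0 and 25.4 in Trim24-/- animals liver_411M and liver_395M against 358 to 749. Low values thus occurred in both genotypes, in 4 of 10 animals. The genotype difference for Cyp2c39 was 0.17 ± 1.08.

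The difference between the Trim24-/- effects at the 2 ages was tested directly. None of the 43 genes passed, where 0.033% of all genes did, and at an unadjusted p under 0.05 there were 8, of which 5 were higher and 3 lower, against 6.39% of all genes (3.11% and 3.29%). Cyp2d9 differed most in the lower direction, by -1.82 ± 0.39 (adjusted p = 0.154), followed by Cyp2u1, by -1.43 ± 0.29 (adjusted p = 0.0991). Cyp2c37 differed most in the higher direction, by 3.90 ± 1.27 (adjusted p = 0.519). Without Trim24-/- animal 37KO the values for Cyp2u1 and Cyp2c37 were -1.72 and 5.28, with adjusted p of 7.53e-04 and 0.0132, and without animal 2WT that for Cyp2d9 was -2.11 with an adjusted p of 0.0219. The adjusted p stayed above the threshold under 34 of 36 alternatives for Cyp2u1, 35 of 36 for Cyp2c37 and 34 of 35 for Cyp2d9. For Cyp2u1 the dimmer probe set had the opposite sign, 0.27 ± 0.17.

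The ages themselves differed in more than time. Xist, the RNA of the inactive X chromosome in females, read 948 to 2169 on all 5-week arrays and 13.4 to 44.5 on all 14-week arrays, and the Y-linked Eif2s3y the reverse, so that age and sex-linked signals cannot be told apart. Median signals were also higher at 14 weeks. With that limit, 14 of the 43 genes were lower in 14-week than in 5-week WT livers without overlap and 4 were higher, against 5.97% and 13.1% of all genes. The 4 higher were Cyp2u1, Cyp2d12, Cyp2s1 and Cyp2d34, the last named after its values were seen. All 4 were dim, with means of 6.49 to 23.5 in 5-week WT livers, whereas most of the 14 lower genes were bright. The summed signal of 8 hepatocyte markers averaged 70475 in 5-week and 60043 in 14-week WT livers, with overlap. The part of brightness and scaling in these counts was not tested. Cyp2u1 spanned 22.04 to 25.3 at 5 weeks and 76.2 to 119.8 at 14 weeks, a range that overlapped that of 5-week Trim24-/- Rara+/- livers.

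The 14 lower genes included 7 of the Cyp2c subfamily, Cyp2c29, Cyp2c37, Cyp2c38, Cyp2c39, Cyp2c50, Cyp2c54 and Cyp2c68. Cyp2c38 went from 1303 to 1756 down to 283 to 847, and Cyp2c37 from 4981 to 6237 down to 1330.3 to 2979.6. Cyp3a44 went from 36.5 to 410.9 down to 13.7 to 31.4, and Cyp2g1 from 94.6 to 157 down to 19.02 to 69.0. Cyp2b9 and Cyp2b13 overlapped only because of animal 90WT: the other 5-week WT livers lay between 1197 and 4044 for these genes, and the 14-week WT livers between 4.39 and 99.6. Cyp2d9 overlapped as well, at 772 to 3432 and 2973 to 6386. Over all groups, 4 genes were lower on every 14-week array than on every 5-week array (Cyp2c38, Cyp2g1, Cyp3a11 and Cyp2a12, the last named after its values were seen) and none was higher, against 2.26% and 3.71% of all genes.

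**Figure D5:**
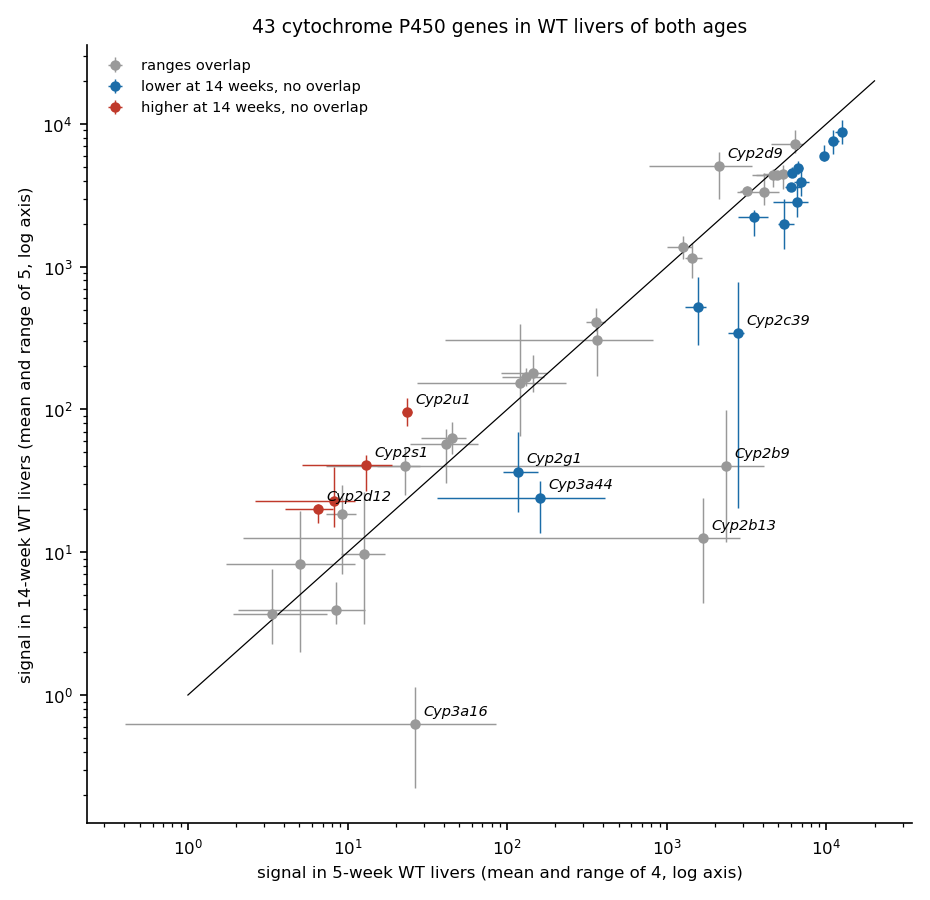
Signal of the 43 genes in 5-week (horizontal) and 14-week (vertical) WT livers, on log axes, with the mean and range of 4 and 5 animals and a line of equality. The ranges do not overlap for 14 genes lower and 4 genes higher at 14 weeks. Cyp2u1 lies above the line, and Cyp2b9, Cyp2b13 and Cyp2c39 lie far below it.

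Genes that work with these enzymes were read from fixed lists. Of 14 measured partners of P450 electron transfer and heme supply, none passed in any comparison with limma. At 5 weeks 11 of the 14 had lower means in Trim24-/- than in WT livers, with a median of -0.14, where 9483 of all 18194 genes were lower. In Trim24-/- Rara+/- against Trim24-/- livers 10 of the 14 were higher. None of 17 xenobiotic receptors and partners passed. Of these, 3 were named after their values were seen: Nr1i2, which encodes PXR, differed from WT by -0.39 ± 0.15 at 5 weeks (adjusted p = 0.340), Nr1i3, which encodes CAR, by -0.19 ± 0.23, and Ahr by 0.17 ± 0.18. Nor did any of 17 regulators of growth hormone and sex-biased expression pass in any comparison. The list of these regulators held Trim24 itself. For Trim24-/- against WT at 14 weeks, 7 of the 17 reached an unadjusted p under 0.05 with limma, all higher. The share of all genes was 8.23% (4.66% higher). In means, 9 of the 17 were higher and 8 lower there, with a median of 0.07. At 5 weeks none of the 17 reached that level in the same comparison.

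Among 23 measured targets of CAR, PXR or AHR outside the P450s, Sult2a2, a steroid sulfotransferase, fell by 2.75 ± 0.43 on the log2 scale in 5-week Trim24-/- livers (adjusted p = 0.0191), from 4935 ± 2819 to 711 ± 403. At 14 weeks Abcc3, an exporter of bile acid conjugates, fell by 1.16 ± 0.20 (adjusted p = 0.0352), and the other 21 passed in neither. Of 14 measured sex-biased liver genes outside these families, 2 rose at 5 weeks and 2 fell. Sult2a2, which was on both lists, was among those that fell. Cyp7b1, an oxysterol hydroxylase, went from 456 ± 33.3 to 2401 ± 657, and C6, a complement component, from 104 ± 64.4 to 769.8 ± 74.4. Both were also higher in Trim24-/- Rara+/- livers, at 2364 ± 265 and 739 ± 71.9 (adjusted p = 1.13e-04 and 2.63e-04). Cyp4a14, which hydroxylates the far end of fatty acids, fell from 5356 ± 366 to 3061 ± 531 in Trim24-/- livers (adjusted p = 0.0191) and read 5939 ± 356 in Trim24-/- Rara+/- livers. At 14 weeks none of the 14 sex-biased genes passed. In the difference between ages 2 of the 14 passed, 1 higher and 1 lower, against 0.033% of all genes. Of 14 measured interferon-response genes 11 rose at 5 weeks, 1 rose at 14 weeks, and none passed in Trim24-/- Rara+/- against WT livers. Markers of hepatocytes, endothelial, stellate, bile duct, lymphoid and red cells held no called gene in any comparison. In 5-week Trim24-/- livers 8 of 10 stellate markers (median 0.43) and all 8 lymphoid markers had higher means than in WT livers. Of 8 hepatocyte markers, 7 had lower means at 5 weeks and 8 at 14 weeks. All 10 endothelial markers were higher in Trim24-/- Rara+/- than in Trim24-/- livers, 3 at an unadjusted p under 0.05, against 11.5% of all genes. Of 3 red cell markers, 2 reached that level, both higher. Their part in the results was not tested.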

How the data were processed

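Liver RNA of 22 mice was amplified in 2 rounds from 100 ng and hybridised to Affymetrix arrays, per the labels' protocols. The authors deposited 1 linear intensity (signal) per probe set and array. Its mean, after 2% was trimmed from each end, was 100.001 on every array; no source names the summarisation software. Of 45101 probe sets, 34958 carried 1 gene symbol. Each of 18194 genes was read from its brightest probe set, and log2(signal + 16) was fitted with limma 3.58.1 in R 4.3.3, in 1 fit of the 12 arrays at 5 weeks, 1 of the 10 at 14 weeks and 1 of all 22 for the difference between ages. A gene was called where its p, adjusted by Benjamini-Hochberg across the 18194 genes, was under 0.05, and fits were tested on simulated data. Intervals are 95%. The number of animals limits the precision.

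The members and gene lists were chosen with earlier results of these data known. Genes were named if they were well known members, were called, or were among the 8 largest rises or falls of a comparison at a mean signal of at least 32. From each list up to 4 called genes were named. Promoters came from RefSeq (GRCm38.p6), matched by gene symbol, and were aligned with Biopython 1.88. Alternatives were other pseudocounts, filters, probe sets, scalings, variance models, sets of arrays and leaving out each animal. Protein sequences were not used here.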

Additional observations from a re-analysis of the deposited data

Results flagged for a closer look

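Of 166 combinations of a gene and a group with a mean signal of at least 32, 16 held an animal far from the others by Dixon's test at 95%, which chance alone flags in about 1 of 20. No explanation was tested.

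Trim24-/- animal 37KO at 5 weeks was the highest of its group for Cyp2c37 (6923, next 141) and Cyp2c50 (5638, next 3134), and the lowest for Cyp2c39 (135, next 3214) and Cyp2u1 (104, next 242). Trim24-/- Rara+/- animal 73R was the reverse for the Cyp2c genes, lowest for Cyp2c37 (356, next 6098), Cyp2c50 (3735, next 6712) and Cyp2c55 (22.4, next 84.9) and highest for Cyp2c39 (4671, next 3259.6). Each of these 2 animals was flagged for 4 genes. Trim24-/- animal 6KO was lowest for Cyp2b9 (1.83, next 2742) and Cyp2b13 (8.63, next 3278). WT animal 90WT was lowest for Cyp2b9 (7.28, next 2409) and for Cyp2f2 (4514, next 6732).

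The others were single values. Trim24-/- Rara+/- animal 82R was highest for Cyp3a44 (342, next 248). At 14 weeks WT animal liver_464WT was highest for Cyp2c29 (7113, next 5839.8), WT animal liver_616WT for Cyp2c55 (399, next 114) and Trim24-/- animal liver_395M for Cyp2c55 (449, next 198).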

How the results depend on the processing

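Counts and called genes kept their direction, but the median difference of the 43 genes, near 0 in each comparison, changed sign in 3: it ran from -0.01 to 0.07 for Trim24-/- against WT at 5 weeks, from -0.00069 to 0.11 for Trim24-/- Rara+/- against Trim24-/-, and from -0.05 to 0.09 for the difference between ages. Second probe sets, read on their own, had the opposite sign for Cyp2u1 in the difference between ages and for Cyp2d13 and Cyp2j5 in Trim24-/- against WT at 5 weeks. In some comparisons the sign also differed between probe sets of Cyp1b1, Cyp2d22, Cyp2j5 and Cyp2j6, the last named after its values were seen. Cyp2u1 was called on both its probe sets for Trim24-/- against WT at either age. None of the other genes named here was called on any probe set. For Trim24-/- against WT at 5 weeks the count of called genes, 3, was 1 with only the arrays of those groups, 1 when 54R, 66R and 82R were averaged, 1 when 1KO and 8KO were averaged, and 1 to 6 with an animal left out: 1 without 45WT, 1KO or 8KO, and 6 without 37KO. The call of Cyp2d9 was also lost with a pseudocount of 1 (limma, adjusted p = 0.0658). That of Cyp2d12 was lost with 90WT and 6KO left out (adjusted p = 0.0589). For Trim24-/- Rara+/- against WT the count, 1, was 0 with a pseudocount of 64, with 90WT and 6KO left out and with either averaging, 2 with a filter at a mean log2 of 6, a variance trend, array weights or all 22 arrays, and 0 to 1 with an animal left out. Cyp2d9 was the gene that joined, with adjusted p between 0.00177 and 0.0454 in those 4 fits. Without 2WT or 44WT the gene called was Cyp2d9 (limma, adjusted p = 0.0177 and 0.00435) and not Cyp2u1 (adjusted p = 0.0894 and 0.0949). For Trim24-/- Rara+/- against Trim24-/- the count, 0, was 1 with array weights or all 22 arrays, and 0 to 2 with an animal left out, 2 without 37KO. At 14 weeks the count, 1, was 0 with a pseudocount of 1 and 0 to 1 with an animal left out. For the difference between ages the count, 0, was 1 with array weights, and 0 to 2 with an animal left out, 1 without 2WT and 2 without 37KO. The cause was not tested. The averaged animals and the pair left out together were chosen after seeing the data. No paired analysis was possible because the groups share no replicate number. For genes near the added 16, such as Cyp2d12, the size of a change depends on the pseudocount: 0.22 to 1.37 over 27 alternatives.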

Other observations

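Spread between animals of a group was wide for some of these genes, most often in 5-week WT and Trim24-/- livers. Among those with a mean signal of at least 32, the SD of log2(signal + 16) exceeded 1 for 5 of 32 in WT, 6 of 34 in Trim24-/- and 1 of 34 in Trim24-/- Rara+/- livers. Over all genes at that level the shares were 0.996%, 0.957% and 0.143%. At 14 weeks it exceeded 1 for 1 of 33 in WT and 2 of 33 in Trim24-/- livers, against 0.476% and 0.385%. These are counts in small groups, and no test of the spread was made.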
